A study of Mus musculus with 13 samples.

Results

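Sorted mouse keratinocytes from 6 libraries, 3 with and 3 without Cre-driven deletion of Il12rb2, were compared after 1 day of Aldara. They are 6 of the 13 libraries of the series and were taken by their labels alone. The control group held Il12rb2fl/fl mice, whose Il12rb2 alleles are floxed but which carry no Cre (floxed control). The deleted group held K14Cre/+ Il12rb2fl/fl mice, with the same floxed alleles and a Cre driven by the keratin 14 promoter, which is active in keratinocytes (K14Cre). Both groups were C57/BL6 and both received Aldara, a cream with 5% imiquimod, on the skin. Ages were not given. The remaining 7 libraries, 3 floxed control and 4 K14Cre, came from untreated skin and served as the background of the genotype without Aldara. K14Cre mice without floxed alleles and vehicle-treated mice were not analysed here, so an effect of Cre itself and one of the deletion cannot be told apart.

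Interfollicular keratinocytes are the epidermal cells between hair follicles, and were isolated by FACS. Imiquimod is a Toll-like receptor 7 agonist that provokes psoriasis-like inflammation in mouse skin. Il12rb2 encodes the signalling chain of the interleukin-12 receptor. It pairs with IL12RB1, which also serves the interleukin-23 receptor, and it signals through the kinases JAK2 and TYK2 to STAT4. Interleukin-12 is best known for driving interferon-gamma production by lymphocytes, while interleukins 23, 17 and 22 make up the type 3 response that marks psoriasis.

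Total counts ranged from 9256465 to 17977933 in the floxed control Aldara libraries and from 9138243 to 14089450 in the K14Cre ones. A pair of libraries stood apart from the rest. CPM here are counts scaled to the library total times its TMM factor, edgeR's normalization factor for each library. K14Cre replicate 1 had a median Pearson correlation of 0.865 with the other 5 Aldara libraries over log2 CPM. For floxed control replicate 3 this median was 0.896, against 0.929 to 0.940 for the other 4. In the 10104 genes whose average log2 CPM was 3 or more, K14Cre replicate 1 lay more than 5-fold below every other Aldara library in 433 genes, against 2 to 43 in the others. Floxed control replicate 3 lay more than 5-fold above all others in 23 genes, against 0 to 6. Correlations between genotypes (0.824 to 0.941 over 9 pairs) covered those within the floxed control (0.883 to 0.929) and 2 of the 3 within K14Cre (0.869 to 0.948). The labels name no batch and do not tie replicates to separate animals. The p-values therefore cover only variation among these libraries, which may be technical. Untreated libraries ranged from 5830034 counts (K14Cre replicate 2) to 22232478 (floxed control replicate 3). A single predicted gene, Gm10800, took 14.17% of counts in floxed control untreated replicate 2 and 10.35% in K14Cre untreated replicate 2. In the Aldara libraries its share was 0.048% to 2.219%.

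No gene passed the test for a difference between K14Cre and floxed control skin after Aldara. Of 16051 genes with enough counts, 0 (0%) had an adjusted p under 0.05 in edgeR's quasi-likelihood test with Benjamini-Hochberg adjustment, and the smallest adjusted p was 0.487. An unadjusted p under 0.05 was found for 690 genes (4.3%), 262 of them higher in K14Cre (1.63%) and 428 lower (2.67%). DESeq2 called 24 genes (0.15%), 4 higher (0.0249%) and 20 lower (0.125%), and limma voom called 0 (0%), with 793 (4.94%) at an unadjusted p under 0.05. All 3 K14Cre libraries exceeded all 3 floxed control libraries in CPM for 702 genes (4.37%), and all 3 lay below for 757 (4.72%). The median log2 difference (K14Cre minus floxed control, used throughout) was -0.02. Without K14Cre replicate 1 and without floxed control replicate 3, edgeR also called 0 genes, with 519 and 527 at an unadjusted p under 0.05. DESeq2 called 6 genes (0.0347%) without K14Cre replicate 1, of which 5 were among the 24, and 8 (0.0464%) without floxed control replicate 3, of which 4 were. In untreated skin edgeR also called 0 genes (599 unadjusted, 3.73%), as did limma voom (1181 unadjusted, 7.36%), while DESeq2 called 22 (0.137%). For the interaction, the difference between the genotype contrasts after Aldara and in untreated skin, edgeR called 0 (539 unadjusted, 3.36%), limma voom 0 (729 unadjusted, 4.54%) and DESeq2 2 (0.0125%).

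The depth and spread of these libraries set what could be seen. The median standard error of a log2 difference was 0.49 over all genes and 0.26 for the 3201 genes whose average log2 CPM was 6 or more. In that abundant class the 95% confidence interval lay within a 2-fold change either way for 2455 genes (76.7%), and over all genes for 4922 (30.7%). In simulated counts of the same 16051 genes, the changed genes were drawn from those whose average log2 CPM was 3 or more. The test found 63 of the 100 changed 4-fold, but 7 of the 100 changed 2-fold. Recovery of less abundant genes was not simulated. Counts were drawn independently around group means, so no simulated library stood apart as a whole. A 2-fold difference was therefore seldom detectable with these libraries. The genes below are described by their CPM in replicates 1 to 3, floxed controls first unless stated, and for those compared here with no adjusted p beside them, edgeR's adjusted p was 0.982 or higher.

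**Figure D1:**
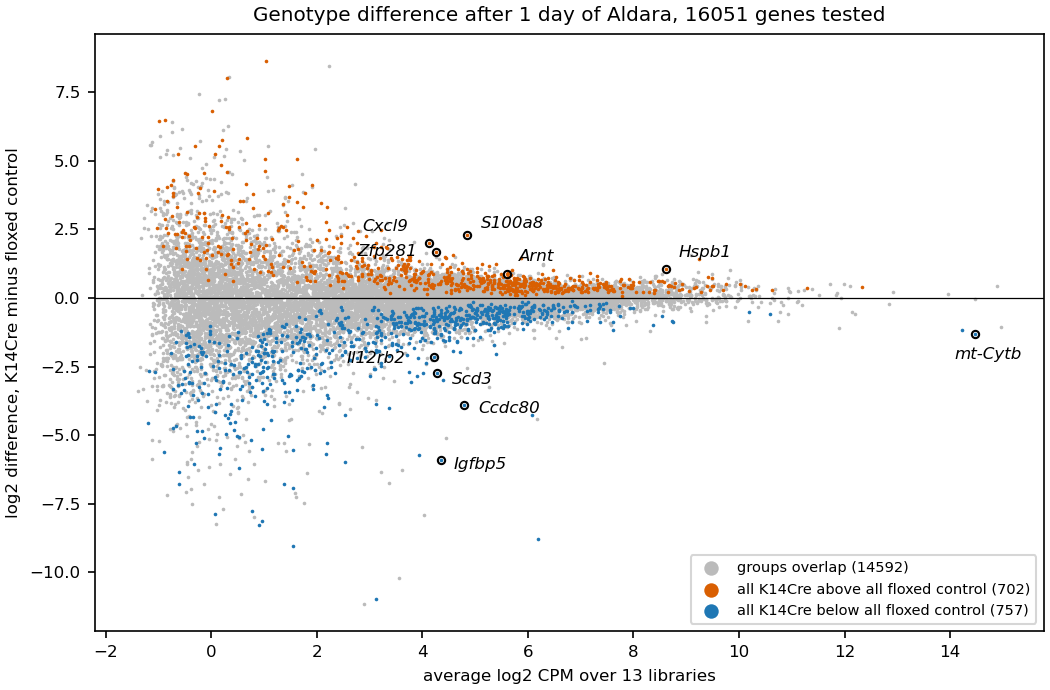
Log2 difference in expression (K14Cre minus floxed control after Aldara, vertical axis) against average log2 CPM over all libraries (horizontal axis) for 16051 genes, 1 point per gene. Orange points mark the 702 genes higher in all 3 K14Cre libraries, blue points the 757 genes lower in all 3, and grey points the 14592 genes whose groups overlap.

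Il12rb2 itself (chromosome 6, 67291318 to 67376188, minus strand, GRCm38) was low after Aldara in every library. The floxed control libraries held 1.98, 8.14 and 2.68 CPM (31, 70 and 55 counts), and the K14Cre libraries 0, 1.07 and 1.64 CPM (0, 15 and 24 counts). The groups did not overlap, but K14Cre replicate 3 and floxed control replicate 1 were close. The log2 difference was -2.14 (SE 0.83, 95% interval -3.92 to -0.36), with an unadjusted p of 0.0214. It ranged from -2.84 without K14Cre replicate 3 to -1.30 without floxed control replicate 2. In untreated skin the levels were 17.1, 78.8 and 52.7 CPM in floxed controls and 22.7, 8.52, 25.6 and 19.02 CPM in K14Cre, a log2 difference of -1.38. The difference between the 2 genotype contrasts had an unadjusted interaction p of 0.484. Which exons are floxed is not stated in the labels. A gene-level count includes exons outside the deletion, so it checks the genotype only in part, and remaining reads in K14Cre cannot be assigned to intact or truncated transcripts.

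The rest of the interleukin-12 receptor path showed no common shift. Of 21 listed receptor, kinase, STAT and ligand genes, 16 were tested, 4 were fitted higher and 12 lower in K14Cre, and the median log2 difference was -0.069, against -0.02 over all genes. Il12rb2 was the only tested member below an unadjusted p of 0.05 and the only one whose groups did not overlap. Il12rb1 (chromosome 8, 70808449 to 70821424, plus strand), the shared chain, stood at 0, 1.74 and 5.89 CPM in floxed controls and 11.97, 3.43 and 3.56 CPM in K14Cre, so the groups overlapped and replicate 1 of K14Cre was highest. Tyk2, the kinase bound to IL12RB1, stood at 29.8, 38.5 and 26.2 CPM in floxed controls and 68.7, 28.8 and 39.7 CPM in K14Cre. Its log2 difference of 0.54 was 0.12 without K14Cre replicate 1. Ifngr2, a chain of the interferon-gamma receptor, read 71.01, 40.8 and 71.4 CPM and 32.4, 45.05 and 45.2 CPM, with floxed control replicate 2 inside the K14Cre range. The gene for the imiquimod receptor, Tlr7, had too few counts to be tested.

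Hspb1 (chromosome 5, 135887919 to 135889563, plus strand), which encodes the small heat shock protein HSP27, separated the genotypes with little spread within either. The 3 floxed control libraries read 168, 173 and 171 CPM and the 3 K14Cre libraries 349, 358 and 357 CPM. Means were 171 ± 2.96 CPM (SD, n = 3) and 355 ± 4.69 CPM (SD, n = 3), so the gap was many times the spread within either group. The log2 difference was 1.06 (SE 0.19, 95% interval 0.65 to 1.47). Its edgeR adjusted p was 0.487, from an unadjusted p of 6.07e-05, while DESeq2's adjusted p was 2.78e-05. Leaving out each Aldara library in turn kept the difference between 1.04 and 1.07. In untreated skin Hspb1 read 364, 419 and 486 CPM in floxed controls and 629, 491, 559 and 583 CPM in K14Cre. The untreated groups did not overlap either, with a log2 difference of 0.42, and the interaction had an unadjusted p of 0.0272 and an adjusted p of 1.00 in edgeR.

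Other heat shock genes had smaller differences. Of 15 tested besides Hspb1, 12 were fitted higher in K14Cre and 3 lower, against 48.3% fitted higher over all genes. The groups did not overlap for 3 of them, all higher (4.37% of all genes), and their median log2 difference was 0.33. With Hspb1 the median was 0.35, with a range of 0.26 to 0.40 as single Aldara libraries were left out. In untreated skin the median with Hspb1 was 0.34, against -0.05 over all genes. Hsph1, an HSP110 chaperone, read 115, 91.9 and 50.6 CPM in floxed controls and 118, 136 and 133 CPM in K14Cre. These groups did not overlap, but floxed control replicate 3 was far below its group, and the log2 difference of 0.59 was 0.32 without it. Hsp90aa1, the inducible HSP90, read 509, 465 and 198 CPM and 629.9, 631 and 515 CPM, a log2 difference of 0.60 that was 0.28 without the same library.

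The promoters of Hspb1 and Hsph1 are shown because both genes were higher in all 3 K14Cre libraries, and because heat shock factor is known to bind inverted GAA units. Capitals mark each match to GAANNTTC or TTCNNGAA, the paired units in either orientation, which read the same on both strands. The sequences are the 250 bases before the start site in RefSeq on GRCm38.p6, 5′ to 3′ on the gene's strand, at chr5:135887669-135887918 (plus strand) and chr5:149636337-149636586 (minus strand).
Hspb1: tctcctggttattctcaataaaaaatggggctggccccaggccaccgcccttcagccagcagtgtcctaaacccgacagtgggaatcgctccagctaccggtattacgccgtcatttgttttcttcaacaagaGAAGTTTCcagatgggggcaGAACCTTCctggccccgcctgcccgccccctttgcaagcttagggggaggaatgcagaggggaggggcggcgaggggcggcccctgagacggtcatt
Hsph1: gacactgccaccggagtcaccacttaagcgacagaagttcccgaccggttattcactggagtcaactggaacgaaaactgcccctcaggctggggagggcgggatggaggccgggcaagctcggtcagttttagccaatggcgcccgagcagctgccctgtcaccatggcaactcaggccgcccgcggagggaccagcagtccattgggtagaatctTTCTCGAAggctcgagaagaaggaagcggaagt
Hspb1 holds 2 GAANNTTC matches, the nearer 89 bases before the start, and Hsph1 holds 1 TTCNNGAA match 25 bases before it. Of 32851 RefSeq promoters of this length, 6.7% held GAANNTTC, 7.2% TTCNNGAA and 12.8% either. Promoters were found for 11 of the 16 heat shock genes, and 6 of these held either match while 5, Hspa4, Dnajb1, Hspb8, Hspd1 and Bag3, held none. A match is a description of the sequence and not evidence of binding.

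After Hspb1, 11 further genes had the smallest p among those higher in all 3 K14Cre libraries. Arnt, the partner of the aryl hydrocarbon receptor and of hypoxia-inducible factors, read 28.2, 31.96 and 30.5 CPM in floxed controls and 69.3, 52.8 and 45.3 CPM in K14Cre, a log2 difference of 0.88 (SE 0.23). Zfp281, a zinc finger transcription factor, read 17.4, 5.93 and 8.61 CPM and 50.4, 28.2 and 24.96 CPM (log2 difference 1.69, SE 0.44). Scai, a suppressor of MRTF-driven transcription, read 2.62, 3.25 and 2.63 CPM and 13.4, 11.8 and 5.61 CPM (log2 difference 1.86). In each of these 3 genes replicate 1 of K14Cre was the highest library. That every K14Cre library exceeded every floxed control was required by their selection. The ribosome assembly genes Bms1 and Rrp8 had log2 differences of 1.01 and 0.77, and Bud13, a splicing factor, one of 1.54. Arsa, the lysosomal arylsulfatase A, stood at 1.51, and Sos2, an exchange factor for RAS, at 1.34. Lin54 (a subunit of the DREAM cell cycle complex), Srgap2 and Tmem154 leaned most on 1 library. Their log2 differences of 1.56, 1.49 and 1.17 were 0.82, 0.64 and 0.75 without K14Cre replicate 1. With Hspb1 counted, that library was the highest of the 6 in 10 of the 12 genes. Of the 12, 8 were also fitted higher in K14Cre in untreated skin, against 45.3% fitted higher there over all genes. This compares direction alone, and a count of interaction tests is given with the lower genes.

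Ccdc80 (chromosome 16, 45093402 to 45128077, plus strand), which encodes a secreted matrix protein, was the gene with the smallest p. It read 5.11, 4.07 and 5.45 CPM in floxed controls and 0.614, 0.0714 and 0.342 CPM in K14Cre, where it rested on 6, 1 and 5 counts. No library of one group reached the other. The log2 difference was -3.89 (SE 0.69, 95% interval -5.35 to -2.43), with an adjusted p of 0.487 in edgeR and 4.61e-05 in DESeq2. With no filter on low counts, edgeR's adjusted p for Ccdc80 was 0.0208, and it was the only gene called (0.00411%). The log2 difference ranged from -4.49 to -3.38 as single Aldara libraries were left out. Untreated skin showed no such gap, at 18.7, 19.6 and 71.9 CPM in floxed controls and 91.02, 56.2, 37.1 and 47.8 CPM in K14Cre (log2 difference 0.65). The interaction was -4.54 on the log2 scale, with an unadjusted p of 7.76e-05 and an adjusted p of 1.00 in edgeR. Fibroblasts are a known source of Ccdc80, and 10 of 15 fibroblast markers were fitted lower in K14Cre (given with the markers of other cell types). Whether fibroblast RNA has a part in the Ccdc80 values was not tested, and in bulk samples fewer cells of a type and less RNA per cell cannot be told apart.

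The other 11 genes lower in all 3 K14Cre libraries were mostly of low abundance. Slc24a3, a sodium-calcium-potassium exchanger, read 7.66, 6.86 and 4.28 CPM in floxed controls and 0.921, 1.499 and 1.64 CPM in K14Cre (log2 difference -2.19, DESeq2 adjusted p 0.0149). Slc2a6, a sugar transporter, was near the detection limit in K14Cre, at 0, 0.0714 and 0.274 CPM against 1.28, 4.42 and 0.925 CPM. Fstl1, a secreted glycoprotein, read 11.6, 21.97 and 18.3 CPM and 5.32, 6.57 and 7.66 CPM (log2 difference -1.40, SE 0.37). Ralgapa2, a regulator of RAL GTPases, stood at a log2 difference of -1.62, Gigyf1, a translational repressor, at -1.47, and Slco4a1, an organic anion transporter, at -3.07. Igfbp5, an insulin-like growth factor binding protein, was set largely by floxed control replicate 3. It read 4.09, 1.98 and 96.8 CPM in floxed controls and 1.23, 0.286 and 0.274 CPM in K14Cre, and its log2 difference of -5.92 was -2.42 without that library. Nrep, named for its link to neuronal regeneration, stood at -3.86, Lum, the collagen-binding lumican, at -2.99, and Flrt2, an adhesion protein, at -2.75. Floxed control replicate 3 was the highest library in 8 of the 12 lower genes and K14Cre replicate 1 the lowest in 9. In untreated skin 8 of the 12 were also fitted lower, where 45.3% of all genes were fitted higher and most of the rest lower. Of the 12 higher and 12 lower genes together, 18 had an unadjusted interaction p under 0.05 in edgeR (3.36% of all genes). They were picked by their p after Aldara, which enters the interaction, so a raised share was built in.

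**Figure D2:**
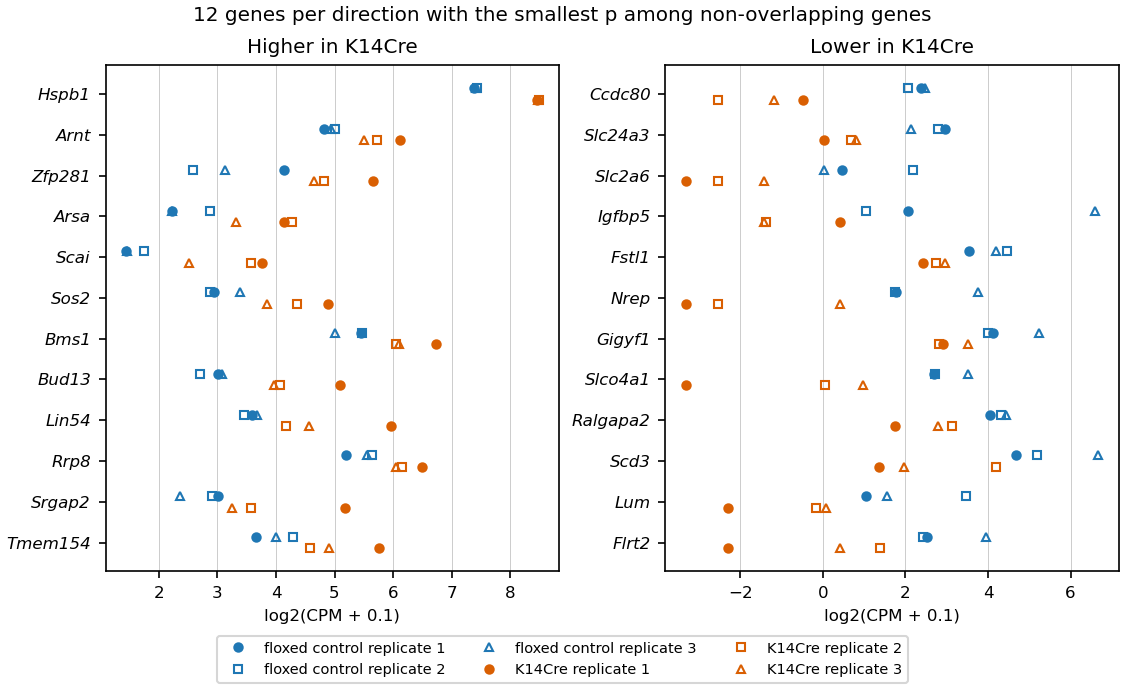
Log2 of CPM plus 0.1 (horizontal axis) in the 6 Aldara libraries for the 12 genes higher and the 12 genes lower in all 3 K14Cre libraries, 1 point per library and colour by genotype. Hspb1 shows the tightest separation, and several lower genes, Igfbp5 among them, show 1 floxed control library far to the right of the other libraries.

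Type 3 effector genes, the antimicrobial and neutrophil-attracting products that interleukins 17 and 22 induce in keratinocytes, were the immune list with the highest share of members fitted higher in K14Cre, apart from class I antigen presentation. Of 17 tested, 14 were fitted higher and 3 lower, and the groups did not overlap for 4, all higher (4.37% of all genes). The median log2 difference was 0.93, which was 0.55 without K14Cre replicate 1 and 0.25 without replicate 1 of both genotypes. In untreated skin the median of this list was 0.78, against -0.05 over all genes. No member was called by edgeR, and 4 had an unadjusted p under 0.05, all higher (1.63% of all genes).

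S100a8 (chromosome 3, 90668978 to 90670035, plus strand), a subunit of the antimicrobial protein calprotectin, read 16.2, 29.2 and 13.9 CPM in floxed controls and 141, 47.3 and 106 CPM in K14Cre after Aldara. All K14Cre libraries lay above all floxed controls. The log2 difference was 2.31 (SE 1.02, 95% interval 0.15 to 4.48, unadjusted p 0.0375). Its partner S100a9 read 5.68, 8.48 and 2.24 CPM and 32.6, 21.2 and 37.8 CPM, again without overlap (log2 difference 2.49, SE 1.19). Untreated libraries held 2.58, 0 and 0.541 CPM of S100a8 in floxed controls and 0.5999, 0.792, 0.544 and 12.2 CPM in K14Cre, with 1 K14Cre library above the rest, and the interaction had an unadjusted p of 0.728. Neutrophils also express S100a8 and S100a9. The other 11 neutrophil markers summed to 15.8, 21.4 and 74.9 CPM in floxed controls and 10.1, 13.7 and 25.5 CPM in K14Cre, and Ly6g, Elane and Ngp had at most 3 counts each over all 6 libraries. The 74.9 CPM of floxed control replicate 3 were mostly Ltf, the lactoferrin gene, at 54.2 CPM. Cxcr2, the neutrophil chemokine receptor, was higher in all 3 K14Cre libraries, at 9.31, 2.998 and 4.99 CPM against 0.192, 2.09 and 2.24 CPM. The part of neutrophils in the S100a8 and S100a9 values was not tested.

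Neutrophil chemokines showed the weight of K14Cre replicate 1. Cxcl1 read 86.3, 67.6 and 56.8 CPM in floxed controls and 259, 78.1 and 150.3 CPM in K14Cre, a log2 difference of 1.21 (SE 0.41) that was 0.70 without that library. K14Cre replicate 2 lay below floxed control replicate 1, so the groups overlapped. Cxcl2 read 2.36, 3.02 and 0.487 CPM and 54.4, 1.28 and 1.71 CPM. Its log2 difference of 3.30 came from K14Cre replicate 1 alone and was -0.38 without it. Il1f9, the gene of interleukin-36 gamma, read 3.38, 4.18 and 2.14 CPM and 5.01, 9.64 and 10.1 CPM, higher in all 3 K14Cre libraries (log2 difference 1.36). Here K14Cre replicate 1 was the lowest of its group, and the difference was 1.61 without it. The receptor list of the same cytokines was level, with 5 of 14 members fitted higher and a median of -0.072.

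The chemokines Cxcl9 and Cxcl10 were fitted higher in K14Cre after Aldara and lower in K14Cre in untreated skin. Cxcl9 (chromosome 5, 92321347 to 92328079, minus strand), a T cell attractant that interferon-gamma induces, read 4.98, 19.99 and 2.82 CPM in floxed controls and 26.7, 27.3 and 55.6 CPM in K14Cre after Aldara, without overlap (log2 difference 2.0, SE 0.77, unadjusted p 0.0208). In untreated skin it read 25.6, 15.9 and 14.6 CPM and 5.49, 20.2, 3.19 and 2.95 CPM, a log2 difference of -1.27. The interaction had an unadjusted p of 0.00675, with an edgeR adjusted p of 1.00. The neighbouring gene Cxcl10 (chromosome 5, 92346638 to 92348889, minus strand) read 15.01, 35.2 and 11.6 CPM in floxed controls and 34.8, 53.04 and 44.8 CPM in K14Cre, with an overlap only between floxed control replicate 2 and K14Cre replicate 1 (log2 difference 1.11, SE 0.44). Its untreated values were 62.1, 79.0 and 37.2 CPM and 32.5, 67.3, 28.2 and 30.8 CPM, a log2 difference of -0.59, and the interaction had an unadjusted p of 0.0115.

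The wider interferon lists were near the level of all genes after Aldara. Of 20 interferon-gamma response genes, 9 were fitted higher and 11 lower (median -0.086), and of 30 type 1 interferon response genes 12 higher and 18 lower (median -0.068). An unadjusted p under 0.05 in edgeR was found for 2 of the former, both higher (1.63% of all genes), and 0 of the latter (4.3% in either direction). In untreated skin the median log2 differences of these lists were -0.69 and -1.07, against -0.05 over all genes. Rsad2, the antiviral enzyme viperin, read 5.75, 6.74 and 34.1 CPM in floxed controls and 0.409, 8.21 and 5.13 CPM in K14Cre, with floxed control replicate 3 far above the other libraries. Among 15 chemokine genes the median of 0.29 was -0.31 without K14Cre replicate 1. An unadjusted p under 0.05 in edgeR was found for 4 higher and 2 lower (1.63% and 2.67% of all genes). The lowest log2 difference among the chemokines was -6.39, but no chemokine was lower in all 3 K14Cre libraries.

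Antigen presentation genes were fitted higher in K14Cre in most cases. Of 18 class I genes, 16 were fitted higher and 2 lower, 3 did not overlap, all higher (4.37% of all genes), and the median was 0.19, with a range of 0.14 to 0.41 as single libraries were left out. H2-Q7, a nonclassical class I molecule, read 289.9, 348 and 193 CPM in floxed controls and 353, 408 and 508 CPM in K14Cre (log2 difference 0.61, SE 0.25). Tap2, a subunit of the peptide transporter, read 96.6, 104 and 116 CPM and 163, 175 and 139 CPM (log2 difference 0.59, SE 0.24). H2-T23, the ligand of an inhibitory receptor of natural killer cells, had a log2 difference of 0.58. In all 3 genes every K14Cre library lay above every floxed control, by a small margin for H2-Q7 and H2-T23. Reads of class I genes can be split among near-identical copies, so the single-gene values are uncertain.

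For class II, 6 of 9 tested genes were fitted higher, and the median of 0.69 was 0.23 without K14Cre replicate 3. In untreated skin the class II median was -0.53 and the class I median -0.08. H2-Eb1, a class II beta chain, read 20.6, 31.8 and 33.8 CPM in floxed controls and 38.9, 73.03 and 92.5 CPM in K14Cre (log2 difference 1.25, SE 0.40, unadjusted p 0.00733, unadjusted interaction p 0.0319). H2-Aa, an alpha chain, read 33.9, 41.7 and 37.7 CPM and 36.3, 74.8 and 114 CPM, so K14Cre replicate 1 lay within the floxed control range (untreated log2 difference -0.76, unadjusted interaction p 0.0126). H2-DMb1, which helps load peptides, went the other way at 6.77, 13.6 and 40.1 CPM and 0.818, 8.99 and 17.4 CPM. Cd74, the invariant chain, had a log2 difference of 0.69 that was -0.04 without K14Cre replicate 3. Langerhans cells and macrophages carry class II abundantly. Their 14 markers other than Cd74 and Epcam summed to 12.9, 30.3 and 21.8 CPM in floxed controls and 9.72, 23.9 and 34.8 CPM in K14Cre, and K14Cre replicate 3 was highest in this sum, in H2-Eb1, in H2-Aa and in Cd74. Cd207, the langerin gene of Langerhans cells, had at most 3 counts over the 6 libraries. The part of such cells in the class II values was not tested.

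**Figure D3:**
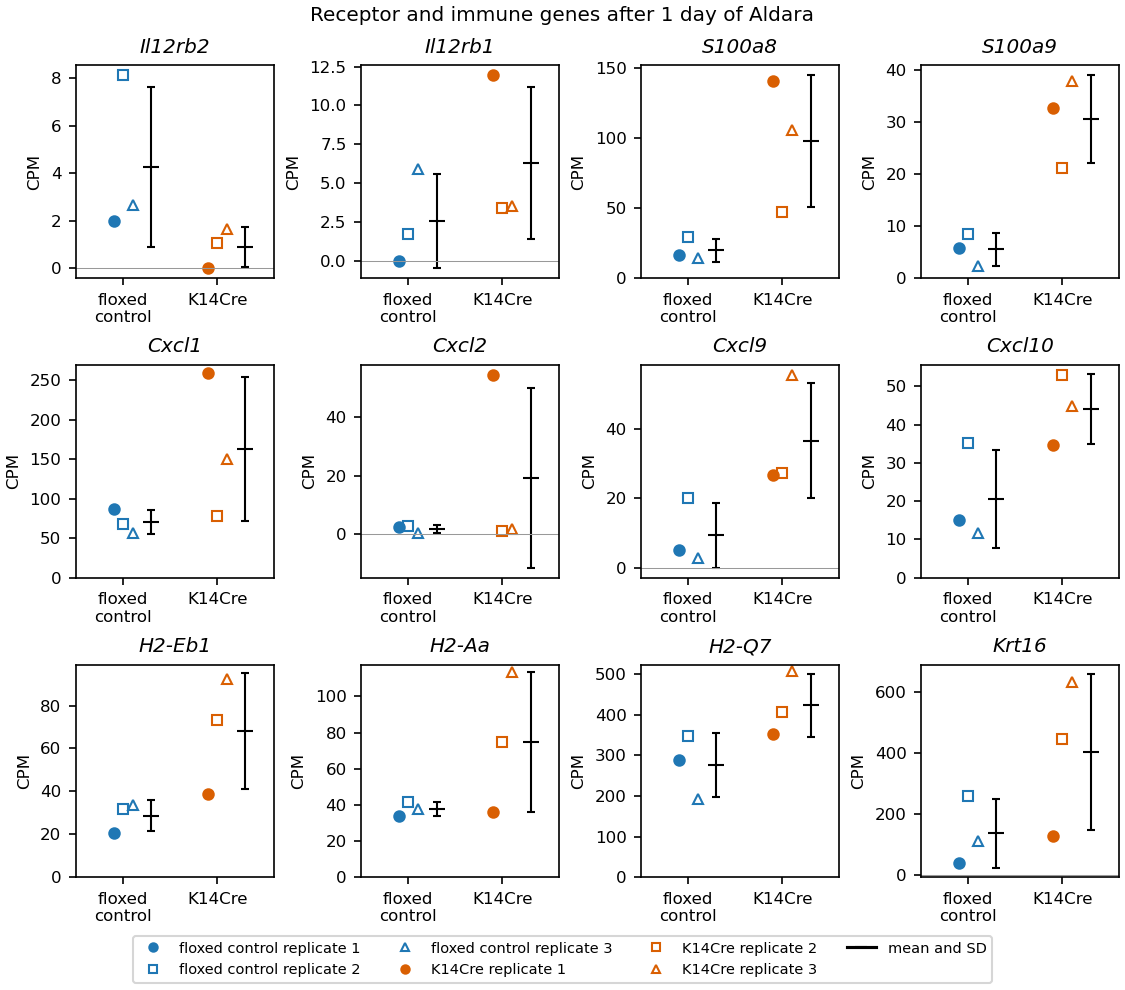
CPM (vertical axis, from 0) of 12 genes in the 6 Aldara libraries, 1 point per library, with the group mean and SD (n = 3 each). Il12rb2 is lower in all 3 K14Cre libraries, S100a8, S100a9, Cxcl9, H2-Eb1 and H2-Q7 are higher in all 3, and the high Cxcl2 mean rests on K14Cre replicate 1.

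Upstream signalling genes showed little separation. Of 14 Toll-like receptor path genes, 6 were fitted higher and 8 lower (median -0.16), and 0 were below an unadjusted p of 0.05 in edgeR. Among 13 interleukin-1 family genes 7 were fitted higher (median 0.036). Of these 13, 1 higher and 1 lower had an unadjusted p under 0.05 in edgeR (1.63% and 2.67% of all genes). The lowest log2 difference of this list was -7.13, but no member was lower in all 3 K14Cre libraries. Of the 13, 1 had 0 counts in every library of at least 1 Aldara group. Casp1, the protease that matures interleukin-1 beta, read 3.77, 4.65 and 4.53 CPM in floxed controls and 19.1, 9.35 and 6.84 CPM in K14Cre, higher in all 3 (log2 difference 1.44, 0.91 without K14Cre replicate 1). Of 19 NF-kappaB genes 13 were fitted higher (median 0.25). Nfkbie, an NF-kappaB inhibitor, read 0.575, 3.72 and 4.53 CPM and 23.9, 3.21 and 3.15 CPM, and its difference of 1.77 was 0.12 without K14Cre replicate 1. Ikbke, a kinase of innate signalling, was lower in all 3 K14Cre libraries at 4.71, 17.2 and 12.6 CPM against 18.5, 18.7 and 22.1 CPM. The 24 immediate early genes were evenly split, 12 higher and 12 lower. Among them Jund read 9.898, 9.18 and 304 CPM in floxed controls, and its log2 difference of -3.23 was 0.26 without floxed control replicate 3.

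Keratinocyte identity genes did not separate the genotypes. Krt14, the basal keratin whose promoter drives the Cre, read 7168, 12647 and 6422 CPM in floxed controls and 7346, 8891 and 12538 CPM in K14Cre, and its partner Krt5 3482, 4849 and 2765 CPM and 3420, 4088 and 5341 CPM. Their log2 differences were 0.13 (95% interval -0.62 to 0.89) and 0.21 (95% interval -0.46 to 0.88), so a difference above 2-fold lay outside both intervals. Krt10, the first keratin of differentiating cells, read 72.6, 118 and 80.6 CPM and 22.4, 164 and 169 CPM, and K14Cre replicate 1 was the lowest library. Of 20 basal adhesion genes 9 were fitted higher (median -0.038), and of 24 suprabasal genes 12 (median -0.053), each with 0 below an unadjusted p of 0.05 in edgeR. The groups did not overlap for 1 of the 24 suprabasal genes, lower in K14Cre, near the 4.72% of all genes. It was Krt77, a late keratin of the interfollicular epidermis. Krt77 read 66.7, 57.9 and 65.9 CPM in floxed controls and 15.04, 54.04 and 34.3 CPM in K14Cre (log2 difference -0.88). The cornified envelope list of small proline-rich and late envelope genes had 6 of 8 tested members fitted higher and a median of 1.06. Of these members 0 were below an unadjusted p of 0.05 in edgeR and 0 were without overlap. In the list's median deviation by library, K14Cre replicate 1 was the lowest Aldara library, at -1.16. The median log2 difference of the list in untreated skin was 2.32.

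Wound and stress keratinocyte genes were fitted higher in 16 of 24 cases, with a median of 0.43. That median was 0.054 without floxed control replicate 1, and 1.30 in untreated skin. Krt16, the keratin of activated epidermis, read 38.6, 258 and 111 CPM in floxed controls and 127, 446 and 631 CPM in K14Cre. Its groups overlapped, and K14Cre replicate 1 lay well below the other K14Cre libraries (log2 difference 1.57, SE 0.69). Tgfa, a ligand of the epidermal growth factor receptor, read 32.7, 29.99 and 28.2 CPM and 87.05, 35.4 and 50.4 CPM without overlap (log2 difference 0.93, 0.50 without K14Cre replicate 1).

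Lipid genes were fitted lower in K14Cre in most cases. Of 20 sebaceous-type lipid genes, 16 were fitted lower and 4 higher, 3 did not overlap, all lower (background 4.72%), and the median of -0.37 stayed between -0.59 and -0.35 as single Aldara libraries were left out. Scd3 (chromosome 19, 44203269 to 44244016, plus strand), a stearoyl-CoA desaturase of sebaceous glands, read 25.5, 36.5 and 102 CPM in floxed controls and 2.45, 18.1 and 3.83 CPM in K14Cre, without overlap but with floxed control replicate 3 far above the rest. Its log2 difference was -2.74 (SE 0.73), with a DESeq2 adjusted p of 0.0314, and -1.93 without that library. Elovl6, which extends palmitate, read 886, 643 and 288 CPM and 205, 391 and 185 CPM, with an overlap (log2 difference -1.22). Soat1, which esterifies cholesterol, was lower in all 3 K14Cre libraries, at 197, 217 and 200.1 CPM against 540.2, 471 and 359 CPM (log2 difference -1.16). Far2, a fatty acyl-CoA reductase for wax synthesis, was lower in all 3 as well (log2 difference -0.64). In untreated skin the median of the sebaceous-type list was -0.21. The summed sebaceous gland markers ranged from 5551 to 8783 CPM in floxed controls and from 4146 to 6102 CPM in K14Cre. The part of sebocytes in these values was not tested.

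Cholesterol and barrier lipid genes gave smaller medians of -0.13 (22 genes, 14 fitted lower) and -0.14 (21 genes, 12 fitted lower). The groups did not overlap for 3 of the 22 cholesterol genes, all lower (4.72% of all genes). For the 21 barrier lipid genes this held for 2 higher and 2 lower (4.37% and 4.72% of all genes). Elovl4, which makes the very long fatty acids of barrier ceramides, read 629.5, 1073 and 879 CPM in floxed controls and 529.9, 414 and 498 CPM in K14Cre. Each K14Cre library lay below each floxed control (log2 difference -0.84, SE 0.28, unadjusted p 0.00819, unadjusted interaction p 0.0321). In the cholesterol path, mevalonate kinase (Mvk) read 52.3, 44.9 and 94.8 CPM and 28.5, 38.8 and 36.7 CPM (log2 difference -0.88), and Nsdhl, a late sterol dehydrogenase, 83.97, 61.5 and 71.2 CPM and 48.1, 48.9 and 55.1 CPM (log2 difference -0.51). Insig1, the sterol-sensing brake on this path, was also lower in all 3 K14Cre libraries, at 67.7, 60.2 and 66.04 CPM and 55.8, 41.5 and 42.5 CPM. Smpd1, the acid sphingomyelinase that forms ceramide, was higher in all 3 K14Cre libraries (log2 difference 0.69).

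Mitochondrially encoded transcripts made up 10.99%, 15.95% and 7.17% of counts in floxed controls and 7.08%, 5.66% and 3.67% in K14Cre. The share in floxed control replicate 3 was close to that in K14Cre replicate 1. Of 12 tested genes 10 were fitted lower, 2 did not overlap, both lower (4.72% of all genes), and 5 had an unadjusted p under 0.05, all lower (2.67% of all genes). The median of -0.85 was -0.35 without floxed control replicate 2. Untreated skin gave a median of -0.64. mt-Cytb, a subunit of complex III, read 30318, 49926 and 28695 CPM and 20180, 14536 and 8999 CPM (log2 difference -1.32, SE 0.40), and mt-Nd1, a subunit of complex I, had a log2 difference of -1.18 (SE 0.36). No mitochondrial gene was called by edgeR, or by DESeq2 with all libraries. DESeq2 called mt-Cytb without K14Cre replicate 1 (adjusted p 0.0281) and mt-Nd1 without floxed control replicate 3 (adjusted p 0.0147). These transcripts are cut from shared precursor RNAs, so they are not independent of each other.

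Cytosolic ribosomal protein genes were fitted higher in K14Cre in 24 of 24 cases. Their groups did not overlap for 7, all higher (4.37% of all genes), and the median was 0.45, with a range of 0.30 to 0.58 over the leave-one-out fits of the Aldara libraries. Rplp1, of the ribosomal stalk, read 767, 666 and 353 CPM in floxed controls and 1267, 971 and 788 CPM in K14Cre (log2 difference 0.76, SE 0.32), and floxed control replicate 3 was the lowest library. Many ribosomal protein genes have processed pseudogenes, so their counts depend on how shared reads were treated. No ribosomal gene on the list was called by edgeR or DESeq2. In untreated skin the median log2 difference of the list was 0.37.

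Stress response and cell cycle lists had medians near that of all genes. The groups did not overlap for 3 of 20 unfolded protein and integrated stress response genes, all higher. For oxidative stress genes this held for 2 of 20, both higher. It held for 1 higher and 3 lower of 22 S phase genes, and for 1 higher and 2 lower of 22 mitosis genes. Over all genes the shares were 4.37% higher and 4.72% lower. Of 20 unfolded protein and integrated stress response genes, 15 were fitted higher (median 0.11), and Atf4, their central transcription factor, read 182, 196 and 122 CPM in floxed controls and 319.5, 252 and 233 CPM in K14Cre without overlap (log2 difference 0.69, SE 0.28). Among 20 oxidative stress genes 12 were fitted higher (median 0.088), and thioredoxin, Txn1, was higher in all 3 K14Cre libraries (log2 difference 0.49). Medians were -0.043 for 22 S phase genes and 0.074 for 22 mitosis genes. Aurka, a mitotic kinase, was lower in all 3 K14Cre libraries at 16.2, 16.6 and 20.9 CPM against 32.3, 47.3 and 25.1 CPM (log2 difference -0.96), while 15 of the 22 mitosis genes were fitted higher. Ccne2, the S phase cyclin E2, was also lower in all 3 (log2 difference -1.11). For 22 glycolysis and hypoxia genes the median was 0.11 and for 18 clock genes -0.023. Dbp, a clock output factor, read 20.8, 24.4 and 23.2 CPM and 0.102, 7.78 and 9.37 CPM, with K14Cre replicate 1 near 0.

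**Figure D4:**
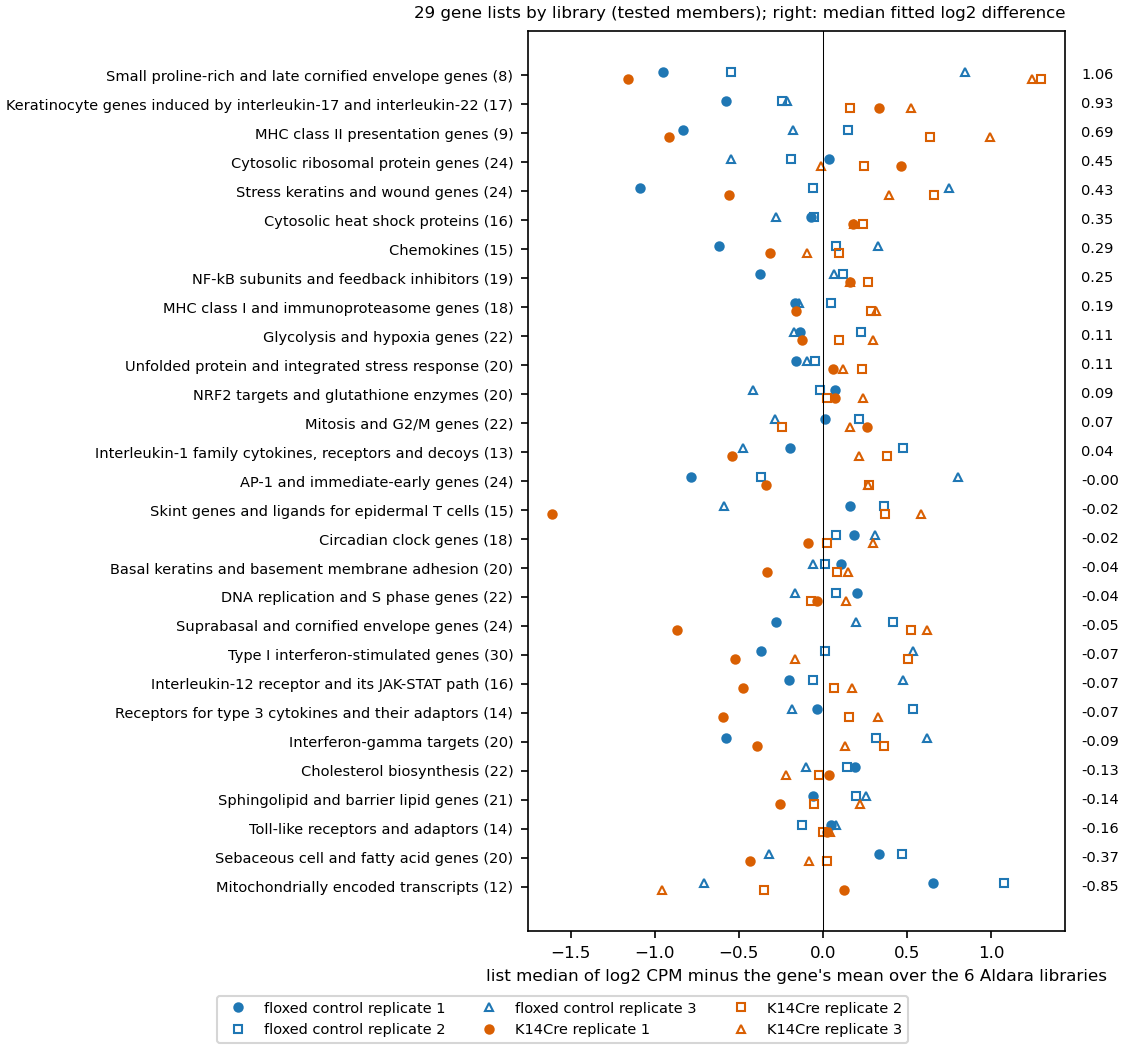
Left, median deviation of each gene list from its mean over the 6 Aldara libraries (log2 scale), 1 point per library and colour by genotype, for 29 lists; right, the median fitted log2 difference (K14Cre minus floxed control) of each list, with all genes at -0.02. The cornified envelope, type 3 effector, class II and ribosomal lists have the highest medians and the mitochondrial list the lowest. The spread between libraries of 1 genotype is wide in most lists. In the cornified envelope list K14Cre replicate 1 is the lowest library.

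Markers of other cell types differed between the libraries as well. Interfollicular keratinocyte markers summed to 11180 to 19470 CPM in floxed controls and 12470 to 20520 CPM in K14Cre, and Krt5 and Krt14 were abundant in every library, as the cell type label implies. Of 15 fibroblast markers 10 were fitted lower in K14Cre, and their median of -0.97 was -0.40 without K14Cre replicate 1 and -1.80 without K14Cre replicate 3. Dcn, the matrix proteoglycan decorin, read 28.7, 83.6 and 70.7 CPM and 6.24, 19.9 and 39.8 CPM, and Col1a2, a collagen I chain, 14.8, 55.7 and 55.2 CPM and 2.97, 16.9 and 24.4 CPM. Both overlapped between the genotypes. An unadjusted p under 0.05 was found for 5 of the 15 with lower and 2 with higher fits (2.67% and 1.63% of all genes). The higher ones were Pdgfrb, a receptor of pericytes and fibroblasts, at 0.0639, 0.465 and 0 CPM and 0, 6.496 and 1.37 CPM, and Col5a1, a collagen V chain, at 1.21, 0.349 and 0.876 CPM and 11.5, 0.0714 and 4.38 CPM. These also overlapped, and Col5a1 was named after its values were seen. The summed fibroblast markers ranged from 259.3 to 506.9 CPM in floxed controls and from 209.5 to 382.5 CPM in K14Cre.

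Melanocyte and Merkel cell markers were fitted lower in 12 of 13 tested cases, with a median of -1.50, and their sums did not overlap (157.1 to 615.7 CPM in floxed controls, 37.7 to 102.2 CPM in K14Cre). The melanocyte genes among them summed to 167.4, 137.8 and 98.2 CPM in floxed controls and 15.6, 86.7 and 46.9 CPM in K14Cre. The 6 Merkel cell genes summed to 19.9, 19.3 and 517.6 CPM in floxed controls and 22.2, 15.4 and 4.79 CPM in K14Cre, so the high value was that of floxed control replicate 3 alone. Krt8 and Krt18, the simple epithelial keratins that Merkel cells express, had log2 differences of -4.25 and -4.41, which were -1.14 and -0.44 without that library. Both splits of the marker list were made after its values were seen. In untreated skin the median of the whole list was -0.82. Tyr, the tyrosinase of melanocytes, read 4.15, 3.02 and 8.27 CPM and 0, 0.928 and 0.479 CPM, and Kit, their growth factor receptor, 10.7, 15.6 and 21.3 CPM and 7.77, 6.14 and 1.37 CPM, each lower in all 3 K14Cre libraries.

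Muscle, adipocyte and red cell markers were fitted lower in 10 of 12 tested cases. Their median of -1.90 was -0.006 without floxed control replicate 1, and 0 were without overlap. Hair follicle markers summed to 3309 to 3992 CPM in floxed controls and 2055 to 3441 CPM in K14Cre, and endothelial markers to 72.7 to 125.9 and 63.3 to 143.5 CPM. The groups did not overlap for 2 of 13 endothelial and mural markers, both lower (4.72% of all genes). T cell markers summed to 16.97 to 34.9 CPM in floxed controls and 16.1 to 21.2 CPM in K14Cre, with Gzmb, the cytotoxic protease, at 0 in every Aldara library. Of 8 tested T cell markers 4 were fitted higher and 4 lower, with a median log2 difference of -0.65. The groups did not overlap for 2 of the 8, both higher (4.37% of all genes). Trbc2, a T cell receptor constant gene, was higher in all 3 K14Cre libraries, at 4.73, 2.21 and 2.92 CPM in floxed controls and 8.69, 6.28 and 7.87 CPM in K14Cre. The part of these cell types in the differences described above was not tested.

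**Figure D5:**
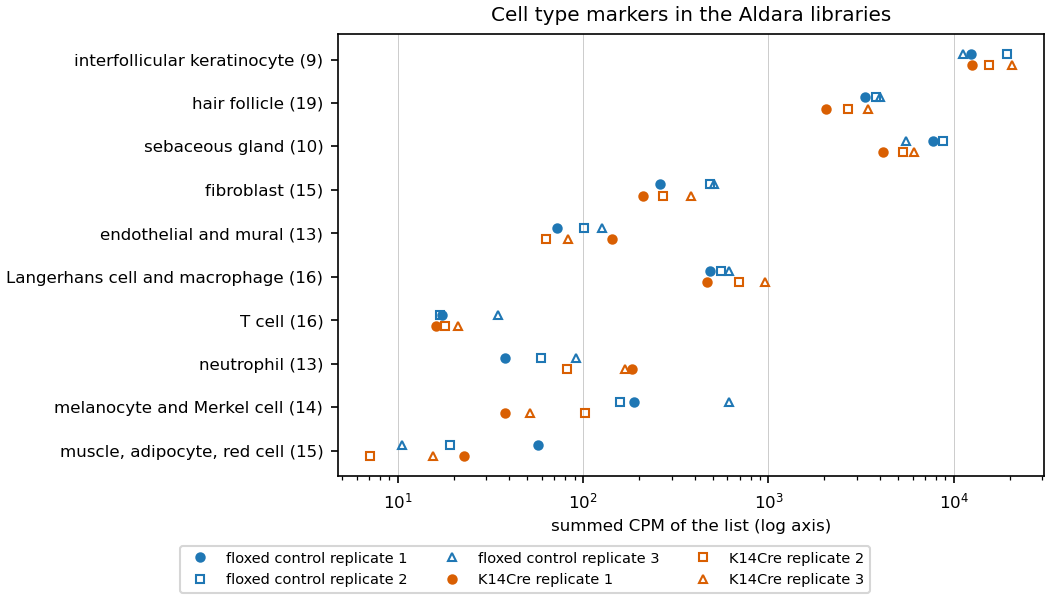
Summed CPM (log axis) of 10 cell type marker lists in the 6 Aldara libraries, 1 point per library and colour by genotype. Keratinocyte markers are the most abundant and overlap between the genotypes, while the melanocyte and Merkel cell markers do not overlap.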

How the data were processed

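Per the labels' protocols, total RNA of sorted interfollicular keratinocytes was made into Smart-seq2 libraries, which carry neither strand marks nor molecular identifiers, and sequenced as single-end reads. The deposited table holds raw counts per gene, which the authors had not normalized. The submitters' processing notes name STAR, featureCounts, Subread and GRCm38. Versions, the strand setting and the handling of multiply mapped reads are not stated there, so counts of overlapping, antisense or near-identical genes are uncertain.

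Groups came from the sample titles. edgeR 4.0.16 (R 4.3.3; filterByExpr at a minimum count of 10, TMM factors, quasi-likelihood F test) was fitted to all 13 libraries with 1 coefficient per group, so that all groups share 1 estimate of the spread, and the contrast K14Cre minus floxed control after Aldara was taken. Benjamini-Hochberg adjustment ran over all 16051 genes tested, with calls at an adjusted p under 0.05. CPM are counts scaled to the effective library size, which is the library total times its TMM factor. DESeq2 1.42.0 and limma 3.58.1 (voom), another normalization (RLE), other filters, a replicate block and leaving out libraries were alternatives. Coordinates are from GENCODE M21 on GRCm38. The fit was tested on simulated data.

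Named genes were, besides Il12rb2, Il12rb1, Krt14, Krt5, Krt10 and Tlr7, the 12 higher and 12 lower genes with the smallest p among those whose groups did not overlap (average log2 CPM of at least 3, predicted genes left out), and up to 4 genes per list with the smallest p. Of 681 symbols in 39 lists, 678 were found. The genes and lists were chosen with earlier results of these data known.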

Additional observations from a re-analysis of the deposited data

Results flagged for a closer look

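In untreated K14Cre skin, 1 of the 4 libraries stood apart from the other 3 for each of 3 genes described above, with a gap to its nearest neighbour that exceeded Dixon's 95% critical value as a share of the group's range. For S100a8 the outlying library was replicate 4, at 12.17 CPM against 0.544 to 0.792 CPM. For Cxcl9 it was replicate 2, at 20.2 CPM against 2.95 to 5.49 CPM, and for Cxcl10 the same library, at 67.33 CPM against 28.2 to 32.5 CPM. This replicate 2 had the fewest counts of all 13 libraries, 5830034, and 10.35% of them fell in Gm10800. Whether this bears on its Cxcl9 and Cxcl10 values was not tested. Il12rb2, Hspb1 and Ccdc80 were checked in the same way and were not flagged. Chance flags about 1 in 20 groups of this kind. The Cxcl9 and Cxcl10 flags come from 1 library and are not independent of each other. The untreated log2 differences of these genes, and their interaction tests, rest in part on those libraries.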

How the results depend on the processing

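edgeR called 0 genes after Aldara with RLE factors (716 at an unadjusted p under 0.05), at a minimum count of 30 (638), in the 6 Aldara libraries alone (368), without replicate 1 of both genotypes (721), and with each of the 13 libraries left out (0 to 0). With no filter on low counts it called 1 gene after Aldara, Ccdc80, and 3 in untreated skin. DESeq2 called 24 genes after Aldara, 22 in untreated skin and 2 for the interaction. The interaction count without single libraries ranged from 0 to 1, with 1 gene without floxed control untreated replicate 3. A pair of further fits were chosen after seeing the data: DESeq2 without K14Cre Aldara replicate 1 called 6 genes after Aldara and 3 for the interaction, and without floxed control Aldara replicate 3 it called 8 and 1. The cause of these changes was not tested.

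With the replicate block, edgeR called 0 genes (793 at an unadjusted p under 0.05). Same-numbered libraries did not deviate together (correlations -0.00426, -0.0412 and -0.0108), so the numbers were not taken as pairs.

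Few named genes changed direction. The replicate block gave Krt10 -0.0015. Without replicate 1 of both genotypes, Il12rb1 stood at -0.13, Cxcl2 at -0.21 and Nfkbie at -0.38. Over single libraries left out, Krt14 ranged from -0.11 to 0.49, Jund from -3.78 to 0.26, Cxcl2 from -0.38 to 3.85 and Cd74 from -0.040 to 1.17. DESeq2 gave Cxcl2 -0.39 without K14Cre replicate 1, and Krt14 -0.049 and Jund 0.28 without floxed control replicate 3. The other genes whose differences are given in the report kept their direction under every setting run. No library carries molecular identifiers, so depth limits genes of a few counts, such as Ccdc80 in K14Cre, to counting error that is not fully known.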

Other observations

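The genes that DESeq2 called after Aldara and that are not described above were named after their values were seen. Most were of low abundance, and edgeR called 0 of them, with an adjusted p of 0.664 for Syne3 and 0.982 for the others. Among them Grk3, Rhpn2, Aldh3b1 and Agtr1a, fitted lower in K14Cre, and 9130019O22Rik, fitted higher, are not described further. The groups overlapped for Agtr1a, at 0.0639 CPM in floxed control replicate 1 and 0.0684 CPM in K14Cre replicate 3. Syne3, which ties the nucleus to the cytoskeleton, read 4.92, 2.32 and 16.4 CPM in floxed controls and 0.614, 0.286 and 0.342 CPM in K14Cre, and was among the 5 of the 24 genes called again without K14Cre replicate 1. Prkcq, protein kinase C theta, read 5.04, 3.02 and 6.33 CPM in floxed controls and 0.205, 0.214 and 0.684 CPM in K14Cre. Each K14Cre library lay below each floxed control in both genes.

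Gpx7, a glutathione peroxidase of the endoplasmic reticulum, was higher in all 3 K14Cre libraries, at 10.4, 5.21 and 4.24 CPM against 0.383, 0.814 and 0 CPM. Gadl1, a decarboxylase of acidic amino acids, was also higher in all 3, at 4.71, 2.14 and 4.58 CPM against 0.319, 0.349 and 0.341 CPM. Fgf7, the keratinocyte growth factor that dermal fibroblasts make, read 1.85, 2.56 and 4.28 CPM in floxed controls and had 0 counts in all 3 K14Cre libraries, where 3 counts would be 0.205 to 0.307 CPM. Mcoln3, a lysosomal cation channel of melanocytes among other cells, read 13.2, 6.04 and 2.82 CPM in floxed controls and 0.102, 0.357 and 0.0684 CPM in K14Cre.

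Another set of these genes was high in floxed control replicate 3. Krt19, a simple epithelial keratin, read 6.96, 6.39 and 141.4 CPM in floxed controls and 0.409, 0 and 0 CPM in K14Cre. Tbx3, a T-box transcription factor, read 0.255, 0.814 and 20.1 CPM, and Ltf, the antimicrobial protein lactoferrin, 1.53, 0.232 and 54.2 CPM, in the same 3 libraries. In K14Cre, Ltf had 0 counts in all 3 libraries and Tbx3 read 0.102, 0.0714 and 0.137 CPM. Krt19 was among the genes DESeq2 called again without K14Cre replicate 1, and none of these 3 was called without floxed control replicate 3.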
